A study of Saccharomyces cerevisiae with 27 samples.

Results

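The comparison described here set 3 cultures of budding yeast given conditioned medium from non-restricted cultures (NRCM) against 3 cultures given sterile water, all harvested at 24 h, the late diauxic shift. These are 6 of the 27 libraries of the series, with groups taken from the labels, and the comparison was read across 6577 of the 6692 genes in the table. Both groups were Saccharomyces cerevisiae BY4741, a laboratory MATa haploid that lacks working HIS3, LEU2, MET15, and URA3, grown in non-restricted (NR) synthetic complete (SC) medium. The NRCM was a concentrate of medium in which NR cultures had already grown, added as a small share of the culture volume, and the water cultures received the same volume of water. The other libraries received medium conditioned by calorie-restricted cultures (CRCM) at the same time, or any of the 3 supplements at log phase or 96 h. The libraries came from poly(A)-selected RNA of 3 biological replicates per group.

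At 24 h a yeast culture has used its glucose and lives on the ethanol and acids it made, so genes for respiration, gluconeogenesis, and nutrient scavenging are active. Yeast holds zinc steady with the transcription factor Zap1, which turns on zinc importers and zinc-sparing enzymes when zinc runs low. It holds phosphate steady with Pho4, which turns on phosphate transporters, phosphatases, and polyphosphate synthesis when phosphate runs low, and which is held back by the kinase Pho85 with its cyclin Pho80 when phosphate is plentiful.

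The 6 libraries held between 9385034 and 20698064 reads. Values are CPM, the reads of a gene scaled to a fixed library total and corrected for library composition, and a fold change is a difference of log2(CPM + 1), which understates the change of low genes. Against the strain labels, URA3 and MET17 (MET15) were listed at 0 in all 6 libraries, and LEU2 reached at most 0.182 CPM. HIS3, whose allele in this strain is a partial deletion, lay between 32.8 and 42.7 CPM. MFA2, an a-factor gene, lay between 439 and 920 CPM, and MF(ALPHA)1, an alpha-factor gene, between 4.12 and 6.004 CPM. MF(ALPHA)2 was as low, at 4.46 to 6.68 CPM, but not every alpha-specific gene was. STE3 lay between 28.05 and 32.2 CPM. SAG1 lay between 77.9 and 92.3 CPM, just below the a-specific gene BAR1 at 94.8 to 121 CPM. NRCM replicate 1 stood apart from the other NRCM libraries. Its log2 values correlated with those of replicates 2 and 3 at 0.9713 and 0.9703 across genes, while replicates 2 and 3 correlated at 0.997 and the water libraries with each other at 0.990 to 0.995. In the plot of list medians by library, the cytosolic ribosomal proteins had a median log2 difference from the water mean of 0.59 in replicate 1, against -0.52 and -0.51 in replicates 2 and 3. Glycolysis genes split in the same way. Counts over most gene lists are given with and without replicate 1, and for many where leaving out another library moved them.

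**Figure D1:**
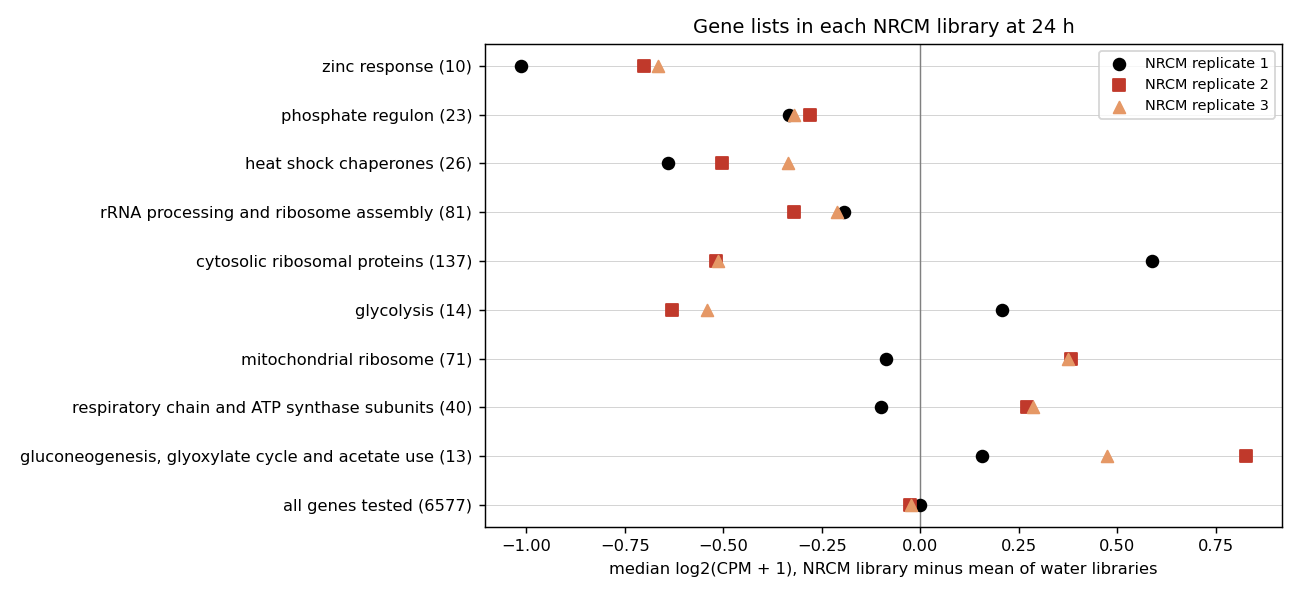
Median over each gene list of log2(CPM + 1) in each NRCM library minus the mean of the 3 water libraries at 24 h (x axis), with the number of members tested in brackets. Replicate 1 lies on the other side of 0 from replicates 2 and 3 for cytosolic ribosomal proteins (0.59 against -0.52 and -0.51) and glycolysis, but on the same side for zinc, phosphate, and chaperone genes.

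With limma on log2(CPM + 1), 454 genes were higher and 430 lower in NRCM cultures than in water cultures at a Benjamini-Hochberg adjusted p under 0.05. These are 6.9% and 6.54% of the genes tested, and list counts of this fit are read against them. List counts of any other fit are read against the shares of that fit, given in this paragraph. Scaling by library totals alone called 584 higher and 292 lower. The 3 NRCM and 3 water libraries did not overlap for 880 of the 884 called genes, and for 31.6% of all genes tested, and 31.4% of all genes had an unadjusted p under 0.05. Most changes were small: the median log2 fold change was 0.51 among the higher genes and -0.53 among the lower ones, and 26 and 46 genes moved by more than 1 on the log2 scale. Without NRCM replicate 1, the counts were 1321 higher and 1132 lower (20.1% and 17.2%), and 454 of the 454 higher and 423 of the 430 lower genes were again called the same way. A fit of the 6 libraries alone, without the CRCM libraries to share the estimate of spread, called 146 higher and 102 lower (2.23% and 1.56%), and 146 and 100 of these were also called in the same direction in the fit of 9 libraries. Leaving out water replicate 1 gave 111 higher and 84 lower (1.69% and 1.28%), and water replicate 3 gave 157 and 124 (2.39% and 1.89%). Leaving out NRCM replicate 2 gave 142 and 103 (2.16% and 1.57%), NRCM replicate 3 gave 252 and 244 (3.83% and 3.71%), and water replicate 2 gave 410 and 401 (6.24% and 6.1%). CPM are shares of a culture's RNA, so a change in every cell and a change in the share of cells that express a gene cannot be told apart.

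The genes of the zinc response were lower in NRCM cultures: 10 of 10 tested members fell, with a median log2 fold change of -0.80, against -0.02 over all genes. This list, like the others, was chosen with earlier results of these data known. Without NRCM replicate 1, 10 of 10 were still lower (median -0.65), and 6 of 10 were lower in the fit of 6 libraries alone and without water replicate 1. The most changed was ZPS1, a cell surface protein gene that zinc-starved cells induce. It had 86.7, 87.8, and 134 CPM in NRCM cultures, against 959, 664, and 815 CPM in water cultures. The groups lay far apart, with every NRCM library well below every water library. The log2 fold change was -2.98 ± 0.19 (SE, n = 3 each, limma adjusted p = 0.000206), and no called gene outside the mitochondrial genome fell by more.

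ADH4, an alcohol dehydrogenase that zinc-limited cells use, had 92.2, 96.9, and 96.97 CPM in NRCM cultures, against 309, 224, and 308 CPM in water cultures. The 3 NRCM values lay close together and well below each water value, and the log2 fold change was -1.53 ± 0.12 (SE, n = 3 each, limma adjusted p = 0.000526). ZAP1, the gene of the zinc-sensing activator itself, had 149.6, 172, and 184 CPM with NRCM and 289.6, 279, and 259 CPM with water, a log2 fold change of -0.71 ± 0.10.

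Among the transporters, ZRT1, the high-affinity importer, had 4931, 7122, and 8612 CPM with NRCM, against 12110.0, 10488, and 12742 CPM with water. Its log2 fold change of -0.81 was -0.56 without NRCM replicate 1, the lowest of the NRCM libraries. ZRT2, the low-affinity importer, had 753, 622, and 617 CPM with NRCM and 1076, 1065, and 833 CPM with water. ZRT3, which releases zinc from the vacuole, had 510.0, 468, and 469.5 CPM with NRCM and 1001.1, 925, and 776 CPM with water, and ZRC1, which stores it there, had 297, 413, and 444 CPM with NRCM and 587, 509, and 563 CPM with water. Genes for import, release, and storage were all at lower levels with NRCM, and their groups did not overlap. The membrane protein genes IZH1, IZH2, and IZH4, linked to zinc homeostasis, had log2 fold changes of -0.79, -0.66, and -0.97.

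VEL1, MNT2, and FET4, named here after their values were seen, were also lower. On the left arm of chromosome VII, the neighbours VEL1 (VII, 11110 to 11730), MNT2 (12481 to 14157), ADH4 (15159 to 16307), and ZRT1 (20978 to 22108) were all lower, while FZF1 (22304 to 23203), the next gene, was higher (0.55). VEL1, known to be induced when zinc is scarce, had 1.37, 1.89, and 2.36 CPM in NRCM cultures, against 9.80, 6.43, and 7.67 CPM in water cultures (log2 fold change -1.64 ± 0.17, limma adjusted p = 0.00161). MNT2, a mannosyltransferase gene, had 51.8, 39.01, and 39.8 CPM with NRCM and 87.1, 70.7, and 77.7 CPM with water (-0.84). FET4, a low-affinity importer of iron and other metals, had 145, 200.5, and 237 CPM with NRCM and 349.5, 270.5, and 309 CPM with water (-0.69). VEL1 lay at low levels in every library, but its groups did not overlap. These genes also lie near chromosome ends, FET4 within 10 kb and the chromosome VII genes at 10 to 30 kb. Of 104 genes tested within 10 kb of an end, 12 were lower and 0 higher. Of 263 at 10 to 30 kb, 33 were lower and 12 higher. In the fit of 6 libraries alone these counts were 0 and 0, and 12 and 4. The part of this location in the values was not tested.

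**Figure D2:**
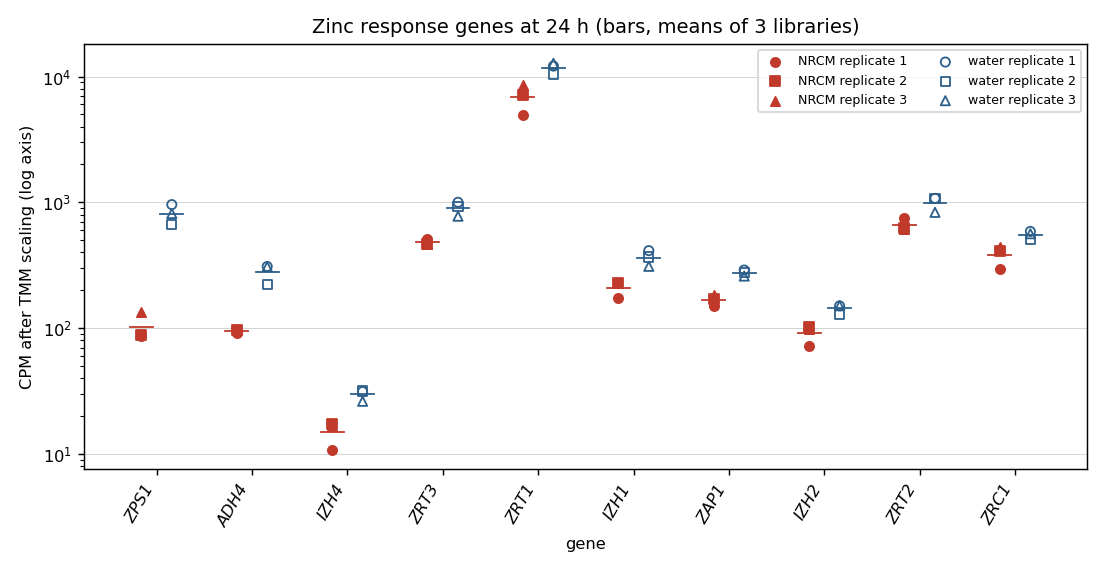
CPM of the 10 zinc response genes (log axis) in the 3 NRCM libraries (filled, left) and the 3 water libraries (open, right) at 24 h, with bars at the group means. The groups do not overlap for any of the 10 genes, and the gap is widest for ZPS1, at 86.7 to 134 CPM with NRCM and 664 to 959 CPM with water.

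The element that Zap1 binds is ACCTT and AAGGT with any 1 base between them. It was searched on both strands of the 500 bases before each coding start in the R64 reference, the same assembly as the sacCer3 build named by the submitters, after the values were seen. Allowing at most 1 mismatch, 7 of the 10 zinc response promoters (70.0%) held it, against 1.98% of the 5914 promoters searched and 5.82% of those of called lower genes. From 250 bases before to 50 after the start, 4 of the 10 held it, against 1.20% of all. All 10 genes were called lower, so the 7 also count in the 5.82%. The list was made of zinc response genes, so its shares describe the list and not the comparison. The stretches shown are from the member with the largest fall, the zinc sensor, an importer, and a vacuolar transporter, read 5′ to 3′ on the gene's own strand from RefSeq, with the matched letters in capitals. ZPS1 held 2 matches, 329 and 314 bases before its start, at chrXV:34309-34359 and chrXV:34324-34374 of the + strand. ZRT1 held a match to every letter 204 bases before its start (chrVII:20754-20804, +). ZRT3 held a match 155 bases (chrXI:118618-118668, +) and ZAP1 a match 144 bases before its start (chrX:333187-333237, - strand), and these, like those of ZPS1, differ from the element by 1 letter.
ZPS1 distal: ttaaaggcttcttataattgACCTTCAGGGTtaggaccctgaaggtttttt
ZPS1 proximal: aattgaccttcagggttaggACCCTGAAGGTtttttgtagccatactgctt
ZRT1: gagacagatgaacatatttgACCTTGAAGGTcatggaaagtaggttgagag
ZRT3: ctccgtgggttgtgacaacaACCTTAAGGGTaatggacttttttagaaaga
ZAP1: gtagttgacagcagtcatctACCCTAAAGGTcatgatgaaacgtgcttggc

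Only 9 of the 5914 promoters held the element without a mismatch, and 5 of those 9 genes were called lower and 1 higher. Besides ZRT1 the lower ones were RTC4, TEX1, ZRG17, and MCD4. RTC4 and TEX1 lie on opposite strands and share 1 element (chrXIV:169650-169700, shown on the RTC4 strand).
RTC4 and TEX1: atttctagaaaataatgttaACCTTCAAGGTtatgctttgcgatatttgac
RTC4 had 45.4, 31.7, and 39.6 CPM with NRCM, against 109.5, 90.4, and 91.3 CPM with water (log2 fold change -1.31 ± 0.14, limma adjusted p = 0.00174), and TEX1, an mRNA export factor, had a log2 fold change of -0.68 ± 0.09. ZRG17, a zinc transporter of the endoplasmic reticulum, and MCD4, an enzyme of GPI anchor synthesis, had log2 fold changes of -0.38 and -0.52. ZRG17 shares its element with MRX15 on the other strand, whose log2 fold change of 0.28 did not pass the test. SDH8, an assembly factor of succinate dehydrogenase, was the 1 higher gene with the element (0.53). A match is a description of the letters and does not show binding.

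The phosphate regulon moved in both directions: of 23 members tested, 11 were lower, 4 higher, and 8 neither, with a median of -0.31. Without NRCM replicate 1 the counts were 10 lower and 6 higher, in the fit of 6 libraries alone 5 lower and 0 higher, and with water replicate 1 left out, 2 lower and 0 higher. Leaving out NRCM replicate 2, NRCM replicate 3, or water replicate 2 gave 6, 7, and 6 lower, and the higher calls were 0 without NRCM replicate 2, NRCM replicate 3, or water replicate 3. The lower members included some of the transporters and scavenging genes. The transporter genes PHO87, PHO90, and PHO91 were not called (-0.39, 0.20, and 0.054). PHO84, the high-affinity phosphate importer, had 59.2, 158, and 209 CPM in NRCM cultures, against 775, 706, and 402 CPM in water cultures. The libraries of each group spread widely but did not overlap. The log2 fold change was -2.26 ± 0.41 (SE, n = 3 each, limma adjusted p = 0.0107), or -1.71 without NRCM replicate 1, which held the lowest value. PHO89, the sodium-coupled phosphate importer, had 33.7, 19.9, and 20.2 CPM with NRCM and 92.1, 84.3, and 39.5 CPM with water (log2 fold change -1.46 ± 0.33). SPL2, which holds back low-affinity phosphate uptake, had 4.73, 9.36, and 10.3 CPM with NRCM and 21.5, 22.6, and 13.2 CPM with water.

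PHM8, a phosphatase gene that releases phosphate from nucleotides, had 67.1, 63.5, and 57.2 CPM in NRCM cultures and 144, 126, and 117 CPM in water cultures (log2 fold change -1.03 ± 0.10, limma adjusted p = 0.00107). GIT1, the glycerophosphoinositol transporter, and PHM6 had log2 fold changes of -0.86 and -0.90. The polyphosphate polymerase subunits did not move together. VTC3 had 65.7, 85.2, and 90.1 CPM with NRCM and 144, 133, and 118 CPM with water (log2 fold change -0.71), and VTC4 and VTC2 fell by less (-0.60 and -0.31), while VTC1 was higher, with 152, 184, and 173 CPM in NRCM cultures against 127, 138, and 103 CPM in water cultures (0.47). The regulators were also split. PHO81, the inhibitor of the Pho80-Pho85 kinase that low phosphate induces, was lower (-0.42). PHO85, the kinase, had 136, 167, and 148 CPM with NRCM and 109, 123, and 93.5 CPM with water (0.47), and PHO4, the activator, had 63.2, 90.6, and 89.6 CPM with NRCM and 48.9, 58.2, and 42.2 CPM with water (0.69), both higher. PHO5, the main secreted acid phosphatase, was lower (-0.37), and its relatives PHO11 and PHO12, which are near-identical copies, did not pass the test (-0.10 and 0.042).

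The Pho4 element CACGTG, which reads the same on both strands, lay within 500 bases before the start in 15 of 23 members (65.2%), against 6.31% of all promoters searched. In the shorter window of 250 bases before to 50 after the start, 6 of 23 held it (26.1%), against 2.96% of all. These shares too describe the list and not the comparison. Of those 15 genes, 9 were lower, 2 higher, and 4 neither. Of the 8 without it, 2 were lower and 2 higher. The promoters of the most changed importer and of SPL2 are shown since they held several copies. PHO84 held 2, starting 436 and 414 bases before its start (chrXIII:26211-26256 and chrXIII:26189-26234, - strand), and SPL2 held 4, of which the nearest pair is given (chrVIII:375165-375210 and chrVIII:375106-375151, - strand). VTC1, which was higher, held 1 (chrV:302629-302674, + strand).
PHO84 distal: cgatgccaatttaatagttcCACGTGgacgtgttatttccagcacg
PHO84 proximal: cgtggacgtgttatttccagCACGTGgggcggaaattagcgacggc
SPL2 upstream: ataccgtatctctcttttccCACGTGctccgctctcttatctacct
SPL2 nearest: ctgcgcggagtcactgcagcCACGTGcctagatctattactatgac
VTC1: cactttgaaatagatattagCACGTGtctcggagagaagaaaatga

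**Figure D3:**
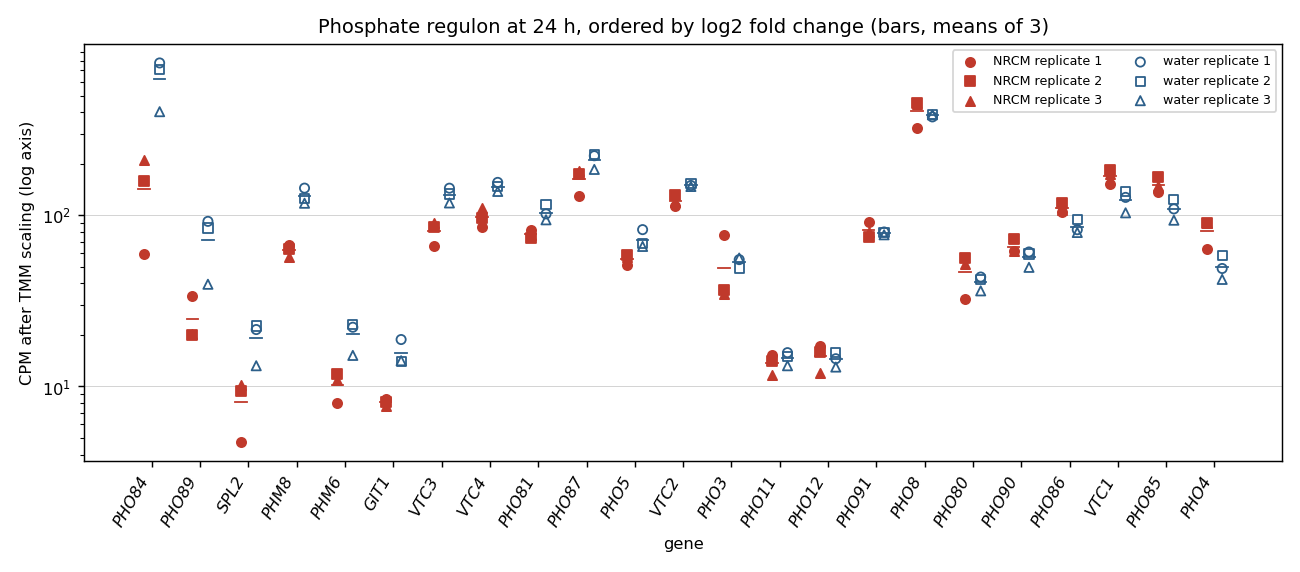
CPM of the 23 phosphate regulon genes (log axis), ordered by log2 fold change, in the 3 NRCM libraries (filled, left) and the 3 water libraries (open, right) at 24 h, with bars at the group means. PHO84, PHO89, and SPL2 on the left lie lower with NRCM, and PHO85 and PHO4 on the right lie higher.

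Heat shock chaperones, which refold or disaggregate damaged proteins, were lower where they were called: 10 of 26 members fell and 0 rose, with a median of -0.51. With NRCM replicate 1 left out, 14 fell and 1 rose, but in the fit of 6 libraries alone BTN2 was the 1 member called. Leaving out water replicate 1, water replicate 3, NRCM replicate 2, or NRCM replicate 3 gave 1, 2, 1, and 6 lower. BTN2, which sorts misfolded proteins, had 276, 426, and 545 CPM in NRCM cultures, against 1087, 852, and 1708 CPM in water cultures (log2 fold change -1.54 ± 0.28, limma adjusted p = 0.0106). HSP82, the inducible Hsp90, had 1788, 2082, and 2575 CPM with NRCM and 4152, 3200.0, and 5585 CPM with water. HSP104, the disaggregase, had 2505, 2497, and 3059.6 CPM with NRCM and 4469, 3807, and 5924 CPM with water. In each of these genes water replicate 3 was the highest of all 6 libraries, and the groups did not overlap. CUR1, FES1, CPR6, HSP26, HSP78, SSA2, and SSA1 were the other members called, with log2 fold changes between -0.91 (CUR1) and -0.52 (SSA1). HSP42, MDJ1, HCH1, and AHA1 were not called (-0.013, 0.0024, -0.043, and -0.057).

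The few called genes of gluconeogenesis and the 1 of the carnitine shuttle were higher, and those of acetaldehyde use moved both ways. PCK1, which commits carbon to gluconeogenesis, had 4980.5, 5973, and 4651 CPM in NRCM cultures, against 1750.0, 3059, and 1457 CPM in water cultures (log2 fold change 1.38 ± 0.25, limma adjusted p = 0.0107). SFC1, the mitochondrial carrier that exchanges succinate for fumarate, had 638, 1226, and 1001.2 CPM with NRCM and 387, 627, and 449 CPM with water, so its groups were separated by a narrow gap. Of 13 members of the gluconeogenesis and glyoxylate list these 2 were called, and the list's median was 0.46. Without NRCM replicate 1, 8 of 13 were higher, and without water replicate 1, 0 were. YAT1, a carnitine acetyltransferase that moves acetyl groups into mitochondria, had 711, 751, and 626 CPM with NRCM, against 249, 276, and 284 CPM with water (log2 fold change 1.36 ± 0.13, limma adjusted p = 0.00107). It was the 1 gene called of 5 in the carnitine shuttle list (median 0.14), and 5 were higher without NRCM replicate 1. The list's median difference from the water mean was -0.58 in NRCM replicate 1, against 0.57 and 0.41 in replicates 2 and 3. ALD6, a cytosolic aldehyde dehydrogenase that makes acetate, had 3354, 4503, and 3835 CPM with NRCM and 1973, 2660.4, and 1738 CPM with water (0.89), whereas ALD4, its mitochondrial counterpart, was lower (-0.49).

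Of 40 subunits of the respiratory chain and ATP synthase, 5 were higher and 0 lower (median 0.16), namely the ATP synthase subunits ATP14, ATP15, and ATP16, its inhibitor INH1, and QCR6 of the cytochrome bc1 complex. Leaving out NRCM replicate 1 gave 22 higher and 1 lower, leaving out NRCM replicate 2 gave 2 higher, and the fit of 6 libraries alone and each of the other 4 omissions gave 3 higher, with 1 lower without water replicate 2. ATP15, a small subunit, had 1263, 1655, and 1504 CPM with NRCM and 849.9, 907, and 789 CPM with water (0.79). Of 71 mitochondrial ribosomal proteins, 8 were higher and 1 lower (median 0.24). In this list replicate 1 had a median of -0.09 relative to water and replicates 2 and 3 both had 0.38, and without replicate 1 the count was 53 higher. Leaving out NRCM replicate 2, NRCM replicate 3, water replicate 1, or water replicate 3 gave 1, 4, 1, and 2 higher. The cytosolic ribosomal proteins (137 members) and glycolytic enzymes (14 members) had 0 calls in either direction with limma, 1 and 3 members at an unadjusted p under 0.05, 0 and 0 calls with edgeR, and 0 and 1 with DESeq2. Without replicate 1, 7 and 8 were lower, in a fit that called 17.2% of all genes lower. Of 81 genes of rRNA processing and ribosome assembly, 9 were lower and 0 higher, led by MRT4 (31.6, 31.8, and 30.3 CPM with NRCM and 70.8, 49.98, and 86.2 CPM with water, log2 fold change -1.08). Leaving out NRCM replicate 1 gave 22 lower, and leaving out any other NRCM or water library but water replicate 2 left 0. Their median was -0.25.

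CHA1, the serine and threonine deaminase, rose by more than any other called gene outside the ribosomal DNA region. It had 25.9, 40.9, and 40.6 CPM in NRCM cultures, against 9.15, 7.96, and 7.84 CPM in water cultures (log2 fold change 1.96 ± 0.16, limma adjusted p = 0.000526), or 2.19 without NRCM replicate 1, the lowest of the NRCM libraries. SHM2, the cytosolic serine hydroxymethyltransferase, was lower (-0.71), and the other 7 members of the serine list were not called. Amino acid permeases moved both ways. PUT4, the proline permease, had 449.6, 1048, and 824 CPM with NRCM and 291, 452, and 294 CPM with water, so NRCM replicate 1 lay just below water replicate 2 (1.11). GNP1, BAP2, and TAT2 were also higher (0.79, 0.62, and 0.58), so 4 of 19 permeases were higher and 1 lower. Leaving out NRCM replicate 1 gave 9 higher and 2 lower. The higher calls fell to 0 in the fit of 6 libraries alone and without NRCM replicate 2, to 1 without NRCM replicate 3, water replicate 1, or water replicate 3, and to 2 without water replicate 2. MUP3, a low-affinity methionine permease, had 49.4, 58.9, and 59.5 CPM with NRCM, against 127, 116, and 128 CPM with water (-1.14 ± 0.10, limma adjusted p = 0.000596).

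Genes of methionine and one-carbon metabolism were lower where they were called. MET6, the methionine synthase, had 324, 334, and 363 CPM with NRCM and 679, 563, and 649 CPM with water (-0.88 ± 0.13), and ADE3, the folate interconversion enzyme, had 448, 445, and 496 CPM with NRCM and 736, 634, and 782 CPM with water (-0.63). MET32, MET16, and MET28 of sulfate assimilation were lower (-0.70, -0.60, and -0.41). With MUP3, 4 of 26 members of the sulfate and methionine list fell and 0 rose. In the folate and methyl cycle list, 3 of 19 fell and 0 rose, the other one being CHO2, a methyltransferase of phosphatidylcholine synthesis (-0.53). The sulfate and methionine list had 4 lower and 1 higher without NRCM replicate 1, and 2 were lower in the fit of 6 libraries alone and without NRCM replicate 2, water replicate 1, or water replicate 3. The list's median log2 difference from the water mean was -0.33 in NRCM replicate 1, against -0.01 and -0.06 in replicates 2 and 3. The folate and methyl cycle list had 6 lower and 1 higher without NRCM replicate 1, and 2 lower without NRCM replicate 2, water replicate 1, or water replicate 3.

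Arginine and lysine synthesis had 3 lower of 10 and 3 lower of 8, led by ARG4 (-0.72) and LYS2 (-0.59), and these counts rested on single libraries. For arginine synthesis, 3 were lower and 3 higher without NRCM replicate 1, 2 lower without NRCM replicate 2 or water replicate 2, and 1 lower in the fit of 6 libraries alone and without water replicate 1 or water replicate 3. Its median difference from the water mean was -0.65 in NRCM replicate 1, against 0.04 and -0.05 in replicates 2 and 3. For lysine synthesis, 6 were lower without NRCM replicate 1, 1 without NRCM replicate 3 or water replicate 1, and 0 in the fit of 6 libraries alone and without NRCM replicate 2 or water replicate 3. For branched-chain amino acid synthesis 4 of 11 were higher and 0 lower (BAT2, LEU9, ILV3, and LEU1, at 0.63 to 0.50). There were 5 higher without NRCM replicate 1, but leaving out any other NRCM or water library left 0 called.

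Other single genes also differed. THI7, the thiamine importer, had 152, 153, and 151 CPM with NRCM and 270.0, 270.5, and 295 CPM with water (-0.87 ± 0.072, limma adjusted p = 0.000526). FUI1, the uridine permease, had 307, 373, and 398 CPM with NRCM and 169, 189, and 175 CPM with water (1.0). CWP1, a cell wall mannoprotein, had 109.9, 173, and 160.2 CPM with NRCM and 57.4, 67.3, and 57.7 CPM with water (1.24). The groups did not overlap in any of the 3 genes, and THI7 was nearly level within the NRCM group. ROX1 and IXR1, regulators of oxygen-responsive genes, were higher (0.96 and 1.05), as were HTZ1, the H2A variant, and HHT2, a histone H3 gene (0.74 and 0.71). SOD1 and SOD2, the cytosolic and mitochondrial superoxide dismutases, were both higher, SOD2 with 1798, 1476, and 1462 CPM with NRCM and 929, 1041, and 886 CPM with water (0.49 and 0.73). Of 25 antioxidant genes 4 were higher and 0 lower, and 8 were higher and 3 lower without NRCM replicate 1. In the fit of 6 libraries alone and without NRCM replicate 2, 1 was higher, and without water replicate 1 or water replicate 3, 0 were. ATG41 and ATG8 of autophagy, ZIP1 of meiotic chromosome pairing, FAS1 of fatty acid synthesis, and HOM3 of threonine synthesis were lower (-1.34, -0.56, -0.89, -0.82, and -0.78). The copper metallothionein genes CUP1-1 and CUP1-2, which are identical copies, had log2 fold changes of -0.98 and -1.01. CUP1-2 had 1568, 1608, and 1832 CPM with NRCM and 2875, 2545, and 5214 CPM with water, so water replicate 3 stood apart. Neither copy was called in the fit of 6 libraries alone or without NRCM replicate 2 or water replicate 1. Of 37 autophagy genes 6 were lower and 1 higher, and of 34 proteasome genes 5 were lower and 3 higher. The autophagy counts were 9 and 3 and the proteasome counts 9 and 5 without NRCM replicate 1, where 17.2% of all genes were lower and 20.1% higher. In the fit of 6 libraries alone and without NRCM replicate 2 or water replicate 1, 1 autophagy gene was lower and 0 higher, and leaving out NRCM replicate 3, water replicate 2, or water replicate 3 gave 3, 3, and 2 lower. The proteasome had 0 calls in the fit of 6 libraries alone and without NRCM replicate 2, water replicate 1, or water replicate 3, and 2 lower and 1 higher without NRCM replicate 3. Of 10 histone genes 3 were higher and 0 lower, and 2 to 4 were higher when a single NRCM or water library was left out. Besides the ribosomal and glycolytic lists, 14 lists had 0 calls, among them the TCA cycle (20 genes, 4 at an unadjusted p under 0.05, 0 with edgeR, and 1 with DESeq2), hexose transport (25 genes, 3, 0, and 0), and ergosterol synthesis (26 genes, 6, 0, and 0). Stress genes often induced at this stage, such as HSP12 and CTT1, had log2 fold changes of -0.0063 and -0.11 that did not pass the test.

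Among called genes that reached 10 CPM in the higher group, the 15 largest falls were 14 open reading frames (ORFs) of the mitochondrial genome and ZPS1. All 8 mitochondrially encoded proteins of the list fell (median -2.56), and 26 of 27 ORFs tested on that genome were lower. Some lay near or under 1 CPM, where levels are not resolved. ATP8 had 0.64, 0.26, and 0.24 CPM with NRCM and 4.11, 1.69, and 1.80 CPM with water, and ATP6 had 4.55, 0.43, and 1.77 CPM with NRCM. COB, cytochrome b, had 32.3, 4.63, and 7.89 CPM in NRCM cultures, against 188, 88.7, and 121 CPM in water cultures (log2 fold change -3.42 ± 0.56, limma adjusted p = 0.00739). COX1, the largest subunit of cytochrome c oxidase, had 74.4, 21.3, and 24.5 CPM with NRCM and 341, 178, and 281 CPM with water. In both genes NRCM replicate 1 lay between the other NRCM libraries and the water libraries. The 9 intron ORFs of COB and COX1 lie within their hosts and are no separate evidence. The summed level of the 8 genes was 38.0 to 139 CPM with NRCM and 344 to 662 CPM with water, a small part of these poly(A)-selected libraries.

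Beside these falls, 9 of the 15 largest rises were ORFs of the ribosomal DNA region of chromosome XII (the YLR154 to YLR162 series), and 11 of 17 such ORFs were higher with 0 lower. This list was made after the values were seen, with the ASP3 genes and retrotransposon ORFs of the same stretch left out. Its counts are a description only. Of the 13 with RefSeq coordinates, 6 overlap an rRNA gene, and YLR154C-H, YLR156C-A, YLR157C-C, and YLR159C-A are identical copies. YLR154W-E had 478, 237, and 559.6 CPM in NRCM cultures, against 89.9, 80.96, and 99.2 CPM in water cultures (2.14). Summed over the 17 ORFs, the level was 3349 to 5289 CPM with NRCM and 1846 to 2660 CPM with water. Gene length moved with the calls as well: the median length was 789 bases among called higher genes with a RefSeq position and 1446 bases among called lower ones, against 1218 bases over all. Of genes over 4000 bases, 0 of 238 were higher and 21 lower, and of those over 300 and up to 500 bases, 82 of 563 were higher and 21 lower. These 3 measures moved with the groups. Read depth did too, at 9385034 to 12375094 reads in NRCM libraries and 12754548 to 20698064 in water libraries, with no overlap. The part of these measures and of depth in the results above was not tested.

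**Figure D4:**
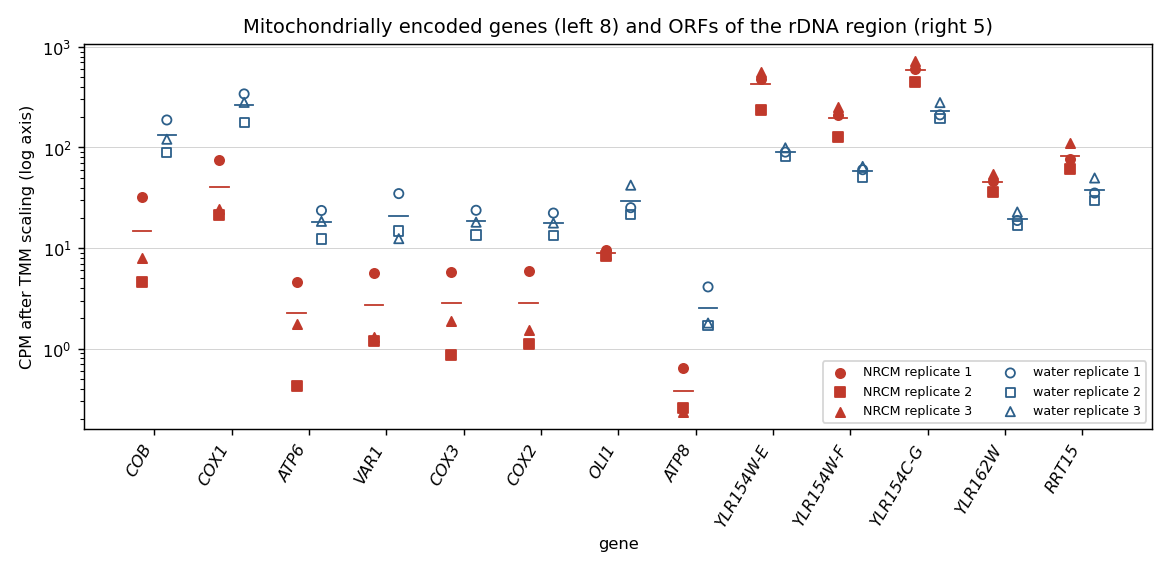
CPM (log axis) of the 8 mitochondrially encoded genes (left) and 5 ORFs of the ribosomal DNA region (right) in the 3 NRCM libraries (filled) and the 3 water libraries (open) at 24 h, with bars at the group means. COB lies at 4.63 to 32.3 CPM with NRCM and 88.7 to 188 CPM with water, and YLR154W-E at 237 to 560 CPM with NRCM and 81.0 to 99.2 CPM with water.

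The NRCM and water libraries of 96 h and of log phase, which the 24 h comparison does not use, show how the called genes behaved at other times. Of the genes called higher at 24 h, 90.3% had a log2 fold change above 0 at 96 h and 85.9% at log phase. Of those called lower, 24.9% and 23.7% did, against 49.7% and 50.8% of all genes tested. The medians were 0.36 and 0.26 for the higher genes and -0.23 and -0.17 for the lower ones. The limma fit of all 27 libraries called 583 genes higher and 594 lower between NRCM and water at 96 h (8.76% and 8.92%), and 16 and 8 at log phase (0.24% and 0.12%). The mitochondrial and rDNA region lists had medians at the other times of -3.46 and -2.28 for the 8 mitochondrial genes and 1.71 and 0.67 for the 17 ORFs at 96 h and log phase. At log phase COB had 1.63, 2.01, and 6.80 CPM in NRCM cultures, against 166, 154, and 2.12 CPM in water cultures, so 1 water library lay among the NRCM libraries and the difference did not pass the test. The zinc list had a median of 0.05 at log phase, where ZPS1 had 23.6, 17.7, and 18.5 CPM with NRCM and 17.96, 20.6, and 36.4 CPM with water. On the time axis of the water cultures alone, 96 h minus log phase, 47.6% of the called higher and 56.7% of the called lower genes had a value above 0, against 50.04% of all genes.

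The difference between the NRCM effects at 24 h and 96 h was itself tested, and 24 genes were higher and 69 lower at 24 h (0.36% and 1.04% of 6658). Scaling by library totals alone gave 46 higher and 25 lower and moved the median difference over all genes to 0.17, against 0.01. Without NRCM replicate 1 of 24 h the counts were 82 higher and 132 lower, without NRCM replicate 1 of 96 h 2 and 10, and without water replicate 2 of 96 h 4 and 8. Of the 10 zinc response genes, 5 differed, each lower at 24 h. ZAP1 at 96 h had 131, 158, and 119 CPM in NRCM cultures, against 97.6, 98.9, and 91.4 CPM in water cultures, so it lay above water at 96 h (0.49) and below it at 24 h, a difference of -1.20 ± 0.21 on the log2 scale (limma adjusted p = 0.0071). ADH4 had 47.6, 44.96, and 44.01 CPM with NRCM and 63.8, 55.2, and 49.8 CPM with water at 96 h, and its difference was -1.24 ± 0.18. ZPS1 had 22.1, 24.6, and 15.9 CPM with NRCM and 78.4, 50.3, and 42.01 CPM with water at 96 h, so it was lower at both times and by more at 24 h (-1.61 ± 0.33). CHA1 had 8.44, 10.7, and 7.90 CPM with NRCM and 7.06, 14.3, and 6.72 CPM with water at 96 h, where the groups overlapped, and its difference was 1.95 ± 0.32. Of the 26 chaperones, 6 differed, all lower at 24 h, among them HSP82 (-1.32) and CUR1 (-1.35). PHO89 was the 1 phosphate gene (-1.80). YAT1 and CWP1 were higher at both times (1.36 and 1.24 at 24 h, 1.81 and 1.55 at 96 h), and their differences did not pass the test.

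**Figure D5:**
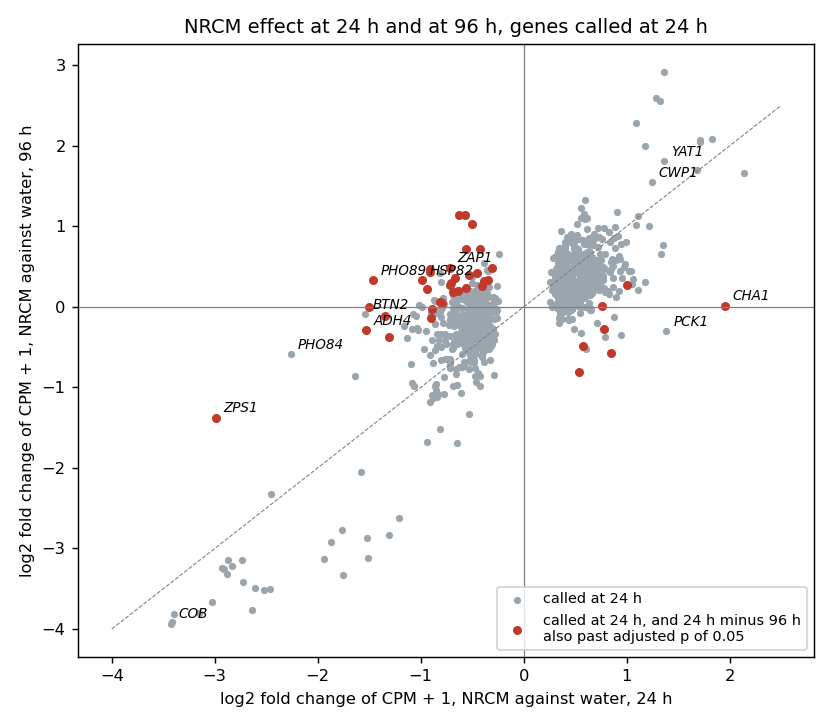
Log2 fold change of CPM + 1, NRCM against water, at 24 h (x axis) and at 96 h (y axis) for the 884 genes called at 24 h, with equality as the dashed line. Genes whose 2 effects differ past an adjusted p of 0.05 are red, among them ZAP1, below 0 at 24 h (-0.71) and above it at 96 h (0.49), and CHA1, at 1.96 and 0.01.

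The CRCM against water comparison shares the water libraries and CRCM minus NRCM shares the NRCM libraries, so values are given side by side. CRCM minus NRCM called 1434 genes higher and 1318 lower (21.8% and 20%), and CRCM against water called 26.7% and 24.7%. For the zinc response, 8 of 10 genes were lower with CRCM and 10 of 10 with NRCM, both against water, with medians of -0.82 and -0.80. ZPS1 was higher with CRCM than with NRCM by 1.63 ± 0.19 on the log2 scale (limma adjusted p = 0.000207), and ZAP1 by 0.69 ± 0.10, with ZAP1 at -0.024 between CRCM and water. Chaperones were lower in 25 of 26 cases with CRCM and 10 of 26 with NRCM (medians -1.94 and -0.51). For rRNA processing, 34 of 81 genes were higher and 1 lower with CRCM, while 0 were higher and 9 lower with NRCM, and 54 were higher with CRCM than with NRCM. The 8 mitochondrial genes summed to 48.1 to 64.2 CPM with CRCM. CHA1 was higher with CRCM than with NRCM by 2.36 ± 0.16.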

How the data were processed

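Poly(A)-selected RNA of BY4741 cultures was sequenced on a NextSeq 500, and the authors aligned reads to sacCer3 with bowtie2. The study's methods name a directional library kit and the labels a kit not called directional, so strand was not settled. Versions and the way reads were assigned to genes are not given in the sources used here. The deposited table is titled as counts, but each column holds a signal that is a gene's share of its library, and whole reads were recovered for the 6 libraries compared (100% of the low values tested lay within 0.1 of a whole read). No column was left unmapped (0).

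Values were scaled by TMM (edgeR 4.0.16), taken as log2(CPM + 1), and fitted with limma 3.58.1 in R 4.3.3 over the 9 libraries of 24 h, keeping genes with at least 1 CPM in 3 libraries, with Benjamini-Hochberg adjustment and a threshold of 0.05. The difference between the 24 h and 96 h effects was fitted over all 27 libraries, and 96 h and log phase CPM are on that scale. Depth was 9385034 to 12375094 reads in NRCM libraries and 12754548 to 20698064 in water libraries. The limma p-values at 24 h rest on the spread between cultures within the NRCM, water, and CRCM groups, pooled and moderated across genes. edgeR and DESeq2 1.42.0 were run on the recovered reads of the 6 libraries as added alternatives. Only the 24 h limma fit of 9 libraries was run on simulated counts. Those libraries were drawn independently, with none set apart as NRCM replicate 1 was, so the run says nothing about that shift. Of the genes in the table, 6008 matched RefSeq (R64). Genes named were the 15 largest called changes in each direction among genes reaching 10 CPM whose groups did not overlap, the 5 lowest adjusted p values either way, and in each list up to 4 called members and those that define it. Others, such as MNT2, were chosen after their values were seen. The comparison, its lists, and its members were chosen with earlier results of these data known.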

Additional observations from a re-analysis of the deposited data

Results flagged for a closer look

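Groups of 3 libraries are too small for a test of single outlying libraries, so the results listed here are the 18 named genes whose NRCM effects at 24 h and 96 h differed past the threshold in the test of that difference (limma over 27 libraries). Values are the 24 h effect minus the 96 h effect on the log2 scale. Of the zinc genes, ZPS1 had -1.61, ADH4 -1.24, ZAP1 -1.20, ZRT3 -0.87, and IZH1 -0.85. Of the chaperones, CUR1 had -1.35, HSP82 -1.32, SSA3 -1.25, YDJ1 -1.16, HSP78 -1.01, and SIS1 -0.98. PHO89 of phosphate uptake had -1.80. The autophagy genes ATG8 and ATG41 had -1.29 and -1.23, and ARG4 of arginine synthesis had -0.99. ERR1 and ERR2, near-identical enolase-like genes whose reads cannot be told apart, had -1.77 and -1.72. CHA1, at 1.95, was the 1 gene of the 18 with a higher effect at 24 h. Over all genes the same test called 24 higher and 69 lower at 24 h, so the 18 are only part of its calls.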

How the results depend on the processing

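The counts of 454 higher and 430 lower genes stayed within 1.5 times under pseudocounts of 0.5 and 3, RLE factors, no filter on low values, a minimum of 10 CPM, and DESeq2 on recovered reads, chosen after seeing the data (403 and 323). Scaling by library totals alone gave 584 and 292. Across settings that left out 1 library the higher counts ran from 111 (without water replicate 1) to 1321 (without NRCM replicate 1) and the lower counts from 84 to 1132. The 6 libraries alone gave 146 and 102, all 27 libraries 258 and 250, and edgeR on recovered reads, chosen after seeing the data, 146 and 101. In all 22 alternatives, 78 of the higher and 48 of the lower genes were called the same way. The cause of these shifts was not tested. For the difference between 24 h and 96 h (24 higher, 69 lower), library totals gave 46 and 25, a minimum of 10 CPM gave 15 higher, and single libraries left out gave 2 to 82 higher and 8 to 132 lower. Deviations of same-numbered NRCM and water libraries correlated at 0.197, 0.345, and 0.0216, of NRCM and CRCM libraries at 0.340, 0.228, and 0.228, and of CRCM and water libraries at 0.343, 0.144, and -0.213. Differently numbered libraries correlated at -0.23 to 0.087 for NRCM and water, -0.38 to 0.36 for NRCM and CRCM, and -0.42 to 0.47 for CRCM and water. Since the same-numbered values were not all over 0.1 and the labels name no shared batch, the numbers were not taken as pairs. Whether the numbers mark shared batches was not settled. With a replicate block the counts were 428 and 414, in the 6 libraries 132 and 109, with edgeR 133 and 105, and for the difference between times 45 and 111. No named gene that passed the threshold changed sign in any alternative. Of 67 lists, 27 had a median that changed sign in some alternative, 22 of them within 0.1 of 0 in the main fit. The other 5 were cytosolic ribosomal proteins (-0.15, against 0.05 and 0.03 without NRCM replicates 2 and 3), arginine synthesis and sulfate assimilation and methionine (both above 0 without NRCM replicate 1), glycerol synthesis and use, and ribonucleotide reductase. Of the named gene results under the alternatives, 4738 kept their side of the threshold, 1175 no longer passed, and 55 newly passed. edgeR and DESeq2 on 9 or 27 libraries were not run, since whole reads were not recovered for every column. With 9385034 reads in the shallowest library, genes under 1 CPM were not resolved.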
